A study of Sus scrofa with 4 samples.

Results

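The miR-28 family is a group of 3 miRNA hairpins, miR-28, miR-151 and miR-708, each of which gives a mature miRNA from its 5p and from its 3p arm. The 6 mature miRNAs were chosen by name, as both arms of these 3 hairpins, from 321 annotated pig miRNAs, and 20 rows of a second deposited table of conserved sequences carried the family names mir-28 or mir-708. The family was taken up after iron ratios of miR-708-5p, higher in dorsal and lower in ventral hippocampus, had been seen in these libraries. Every value below is therefore a description, with no test. Small RNA was sequenced from the hippocampus of purebred newborn Rongchang piglets of a single litter, with the genotype given as wide type and equal sex ratios in both treatment groups. Age at collection was not stated in the labels used here. The iron group of 4 piglets was injected into muscle with 200 mg iron dextran, an iron and sugar complex, on days 3 and 4 after birth to induce oxidative stress, and the control group of 4 piglets is labelled as not injected. Dorsal and ventral hippocampus were collected separately and mixed within a treatment group, which gave 4 pooled libraries: iron dorsal, iron ventral, control dorsal and control ventral. With 1 library per group there are no replicates. The spread between piglets was not measured, and all intervals cover counting error only, with reads treated as independent. Amplified reads are not independent molecules, so the intervals may be too narrow even for that error.

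miRNAs are short RNAs that guide Argonaute proteins to partly complementary sites in messenger RNAs, and the seed, bases 2 to 8 from the 5′ end, contributes most to target choice. One arm of a hairpin usually accumulates more than the other. The family's genes lie in introns of protein-coding genes in human and mouse: miR-28 in LPP, a focal adhesion protein gene, miR-151 in PTK2, which encodes focal adhesion kinase, and miR-708 in TENM4, which encodes a teneurin, a cell-surface protein of the developing nervous system. In RefSeq's pig gene table (Sscrofa11.1), MIR28, MIR151 and MIR708 each lie within the span of the pig gene of the same name, LPP, PTK2 and TENM4. miR-708 is known in rodent cells for induction by the endoplasmic reticulum stress factor CHOP.

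The 5p arms are shown first, to set the bases that all 3 share beside each other. They were read from the conserved table's rows that list pig among their species. The capitals mark the longest run that the 3 sequences share, which is 7 bases long.
ssc-miR-28-5p: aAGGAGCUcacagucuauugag
ssc-miR-708-5p: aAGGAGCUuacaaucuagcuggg
ssc-miR-151-5p: ucgAGGAGCUcacagucuagu
In miR-28-5p and miR-708-5p the run occupies bases 2 to 8, so these miRNAs have the same seed. miR-151-5p starts 2 bases earlier relative to miR-28-5p, and the run falls on its bases 4 to 10. Its own seed therefore differs, although 17 of 19 overlapping bases are identical between miR-151-5p and miR-28-5p, against 16 of 22 between miR-28-5p and miR-708-5p.

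The 3p arms of miR-28 and miR-708 are shown to set their seeds, in capitals, beside each other.
ssc-miR-28-3p: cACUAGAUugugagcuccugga
ssc-miR-708-3p: cAACUAGAcugugagcuucuaga
miR-28-3p and miR-708-3p are identical at 18 of 22 bases when miR-28-3p is set back by 1 base, and that shift separates their seeds. Among all 2791 rows of the conserved table, the seeds printed above and that of miR-151-5p occurred only in rows with a family name of mir-28 or mir-708.

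The libraries held 11396809 to 13839556 annotated miRNA reads. Reads were scaled with TMM, which corrects library totals for differences in composition, and expressed as CPM, which sets all libraries to the same corrected total. Measured miRNAs had 10 CPM or more in at least 1 library, as did 251 of 321, among them 6 of 6 members. The tissue label was checked on markers: the 5 miRNAs of the neuron list, among them miR-9 and miR-124a, summed to 228341 to 256682 CPM, while the liver marker miR-122 stayed at 4.55 to 7.80 CPM. miR-9 gave most of that sum, at 176620 to 202670 CPM. Other lists for tissues outside the brain stood above miR-122. The skeletal and heart muscle list summed to 912 to 1191 CPM and the epithelial list to 127 to 457 CPM. The check does not bear on the region labels. In such bulk libraries, fewer cells of a type and less RNA per cell cannot be told apart.

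miR-151 gave most of the family's reads. miR-151-5p was the most abundant member in each library, with 4667 CPM in iron dorsal, 5222 CPM in iron ventral, 5170 CPM in control dorsal and 4407 CPM in control ventral. Its partner miR-151-3p had 2644, 3137, 3116 and 2722 CPM in the same order of libraries. Both arms were thus high in iron ventral and control dorsal and lower in the other two libraries, and by mean level they ranked 33 and 44 among the 251 measured miRNAs. Together they made up 79.2% of the family's reads in iron dorsal, 84.7% in iron ventral, 82.9% in control dorsal and 79.1% in control ventral.

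miR-708-5p came next on average among the 5p arms. It stood at 786 CPM in iron dorsal (8374 reads), 501 CPM in iron ventral (6176 reads), 544 CPM in control dorsal (6712 reads) and 753 CPM in control ventral (10919 reads). Iron dorsal and control ventral were therefore high and the other two libraries low, the reverse of the order seen for miR-151. miR-708-3p had 261 CPM in iron dorsal, 205 CPM in iron ventral, 242 CPM in control dorsal and 317 CPM in control ventral. Control ventral was again high and iron ventral again lowest, but iron dorsal and control dorsal lay close together.

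miR-28-3p, the more abundant arm of miR-28, had 614 CPM in iron dorsal, 542 CPM in iron ventral, 628 CPM in control dorsal and 569 CPM in control ventral. miR-28-5p had 256, 265, 294 and 249 CPM in the same libraries. For both arms control dorsal was highest. The highest library exceeded the lowest by 1.16-fold for miR-28-3p and 1.18-fold for miR-28-5p, by 1.18-fold for miR-151-5p and 1.19-fold for miR-151-3p, but by 1.57-fold for miR-708-5p and 1.55-fold for miR-708-3p. Over all 251 measured miRNAs the median of this quantity was 1.33, with quartiles of 1.22 and 1.49, so the arms of miR-28 and miR-151 lay below the lower quartile and those of miR-708 above the upper. With total reads as the divisor the lower quartile over all was 1.205. The values were then 1.18 for miR-28-3p, 1.26 for miR-28-5p, 1.21 for miR-151-5p and 1.29 for miR-151-3p. Both arms of miR-708 stayed above the upper quartile with that divisor. With the authors' RPM, miR-708-5p (1.505) lay just below the upper quartile of 1.508, and miR-708-3p (1.55) above it. In that setting miR-28-5p (1.24) and miR-151-3p (1.27) lay above the lower quartile of 1.215, and miR-28-3p and miR-151-5p below it. With DESeq2-type size factors each arm lay on the same side of these quartiles as with TMM. The iron ratios of miR-708-5p were known when the family was taken up, and miR-708-3p comes from the same precursor. The place of the miR-708 arms above the upper quartile is therefore a description, and no support for a family pattern.

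**Figure D1:**
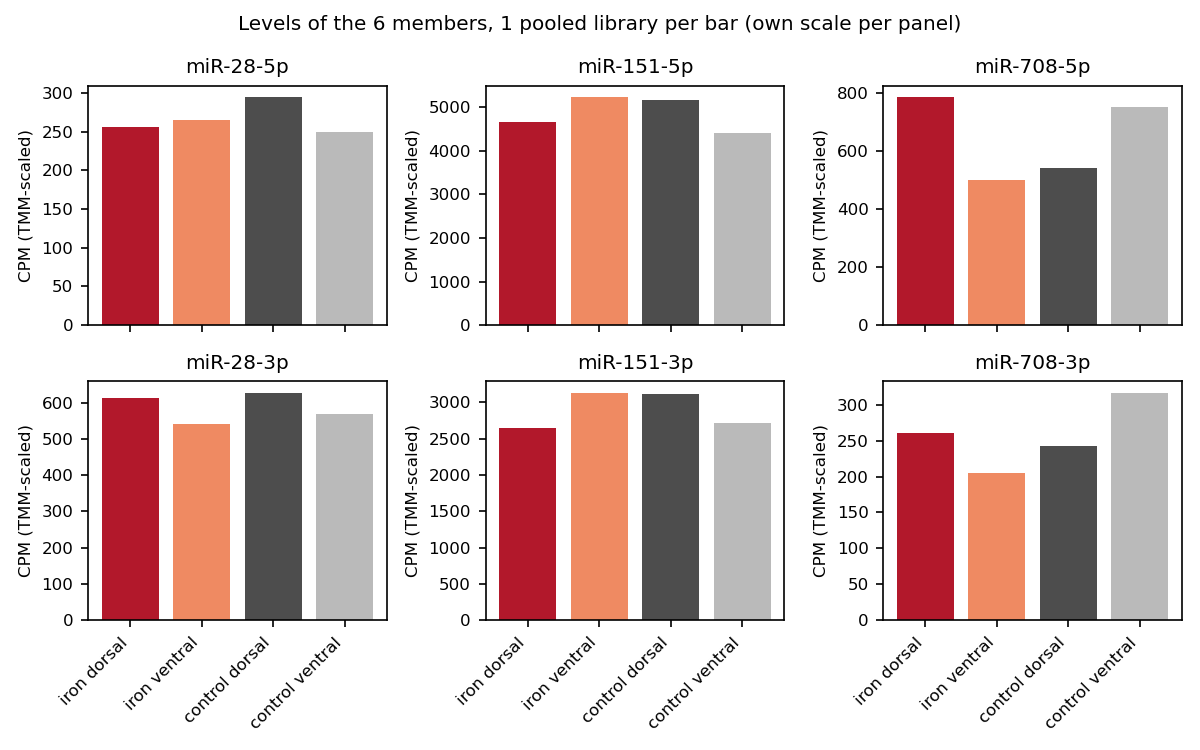
TMM-scaled CPM (vertical axis, from 0, with its own scale in each panel) of the 6 members in the 4 pooled libraries (horizontal axis, 1 bar per library). miR-708-5p is at 786 and 753 CPM in iron dorsal and control ventral and at 501 and 544 CPM in iron ventral and control dorsal, while the bars of miR-151 are highest in iron ventral and control dorsal.

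Since miR-28-5p and miR-708-5p have the same seed, their reads were also added. The sum was 1042 CPM in iron dorsal, 766 CPM in iron ventral, 838 CPM in control dorsal and 1003 CPM in control ventral. miR-708-5p supplied 75.5% of it in iron dorsal (exact binomial 95% interval 74.6% to 76.3%), 65.4% in iron ventral (64.4% to 66.4%), 64.9% in control dorsal (64.0% to 65.8%) and 75.1% in control ventral (74.4% to 75.8%). The libraries formed 2 pairs whose intervals overlap within a pair and not between pairs. This share needs no scaling between libraries.

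Iron against control in ventral hippocampus asks how the members differ after the injections in that region. Both arms of miR-708 were lower in the iron library. miR-708-5p was 1.504-fold lower (95% counting interval 1.46 to 1.55), and miR-708-3p was 1.55-fold lower (1.48 to 1.63). Of the 251 measured miRNAs, 9 had a lower ratio than miR-708-5p and 8 a lower ratio than miR-708-3p. miR-151-5p was higher in the iron library by 1.18-fold (1.17 to 1.198) and miR-151-3p by 1.15-fold (1.14 to 1.17). miR-28-5p had a ratio of 1.06 (1.01 to 1.11) and miR-28-3p of 0.953 (0.922 to 0.984). A difference of at least 1.5-fold with an interval that excludes 1 was met by 2 of 6 members, both lower, against 5.58% of all measured miRNAs (4 higher and 10 lower, or 3 higher and 14 lower with total reads). These 2 are the arms of miR-708, which come from the same precursor. The low ventral ratio of miR-708-5p was known when the family was taken up, so the count is no support for a family pattern. With DESeq2-type size factors only miR-708-3p met the criterion, and the fold of miR-708-5p lies next to the threshold. At 2-fold the count was 0 of 6, against 1.99% of all. The median log2 ratio was 0.01 over the members and 0.00177 over all.

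In dorsal hippocampus, iron against control asks the same of the other region, and here miR-708-5p was higher in the iron library. Its ratio was 1.45 (1.40 to 1.49), which 16 of the 251 miRNAs exceeded. This high ratio was known when the family was taken up, so its rank is a description only. miR-708-3p had a ratio of 1.08 (1.02 to 1.13), a log2 ratio of 0.11 that turned to -0.02 with total reads as the divisor. The miR-151 arms were lower in the iron library, miR-151-5p by 1.11-fold (1.09 to 1.12) and miR-151-3p by 1.18-fold (1.16 to 1.197). miR-28-5p was 1.15-fold lower (1.09 to 1.21), and miR-28-3p had a ratio of 0.977 with an interval that includes 1 (0.946 to 1.01). At 1.5-fold 0 of 6 members met the criterion, against 9.56% of all (9 higher and 15 lower, or 5 higher and 26 lower with total reads as the divisor or with the authors' RPM). At 2-fold it was 0 of 6 against 0.797%. The median log2 ratio was -0.09 over the members and -0.02 over all, and total reads as the divisor lowered the median over all by 0.13 and the authors' RPM by 0.11.

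**Figure D2:**
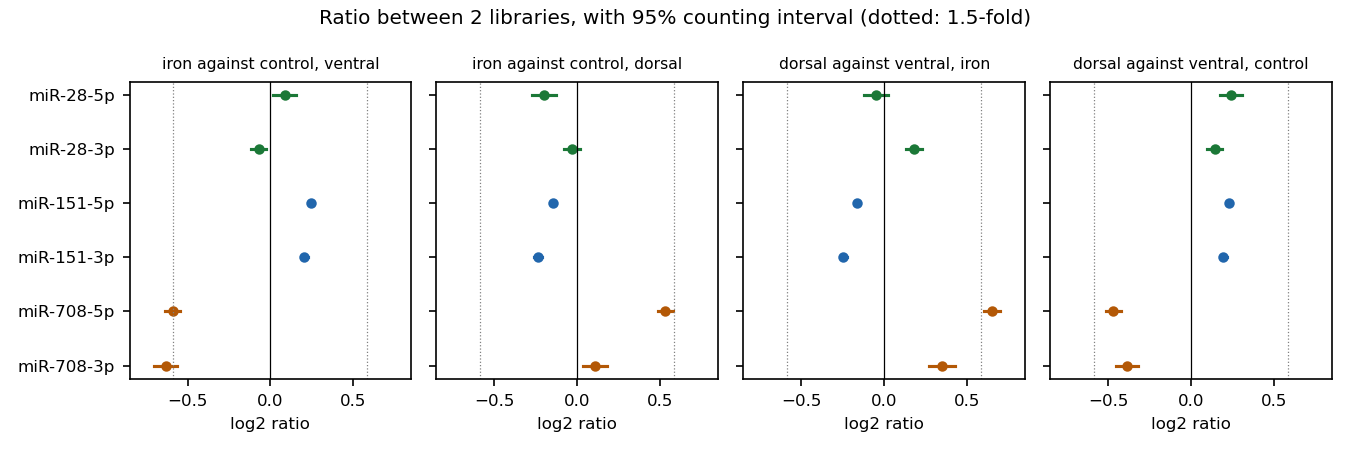
Log2 ratio of CPM between 2 libraries (horizontal axis) for each member (vertical axis) in the 4 comparisons, 1 panel each. Points are ratios, bars the exact 95% counting intervals, and dotted lines mark 1.5-fold. The arms of miR-708 lie opposite to those of miR-151 in every panel with TMM scaling, at -0.59 and -0.63 against 0.24 and 0.20 for iron against control in ventral hippocampus.

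The iron ratios of the regions, which share no library, went in opposite directions for 5 of 6 members, with both counting intervals excluding 1, against 30.7% of the 251 measured miRNAs. The 5 include both arms of miR-151 and of miR-708, and the arms of a hairpin come from the same precursor. The opposite ratios of miR-708-5p were known when the family was taken up, so the count is no support for a family pattern. For miR-708-5p the log2 ratio was 0.53 in dorsal and -0.59 in ventral hippocampus, a difference of 1.12 whose size was exceeded by 7 of 251 miRNAs. For miR-708-3p the dorsal and ventral values were 0.11 and -0.63, a difference of 0.74. miR-151-5p had -0.15 and 0.24, and miR-151-3p had -0.24 and 0.20, which gives differences of -0.39 and -0.44. miR-28-5p differed by -0.29 and miR-28-3p by 0.04. Each ratio rests on 1 pool per group, so whether the regions differ was not tested. With total reads or the authors' RPM, miR-708-3p was not higher in the dorsal iron library, and miR-28-3p changed the sign of its difference. The ventral interval of miR-28-5p, with a log2 ratio of 0.09, included no difference with total reads, unmerged rows or the conserved table. The count of 5 of 6 was therefore 3 of 6 with total reads (28.7% of all measured miRNAs) or the conserved table, and 4 of 6 with the authors' RPM (33.5% of all) or unmerged rows. miR-708-5p and both arms of miR-151 were counted under each of these settings. The share over all was not computed for the conserved table or unmerged rows.

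**Figure D3:**
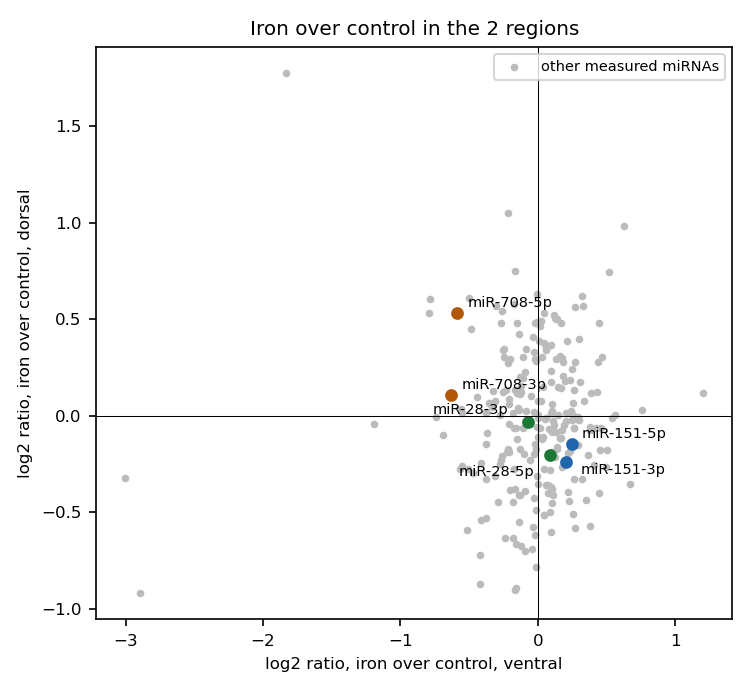
Log2 ratio of iron over control in ventral (horizontal axis) and dorsal hippocampus (vertical axis) for the measured miRNAs, with the 6 members coloured by hairpin and labelled. miR-708-5p lies at -0.59 and 0.53 at the upper left, and miR-151-5p at 0.24 and -0.15 in the lower right.

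Dorsal against ventral hippocampus in iron piglets compares the regions after treatment. miR-708-5p was 1.57-fold higher in the dorsal library (1.52 to 1.62), and 4 of 251 miRNAs had a higher ratio. miR-708-3p was 1.28-fold higher (1.21 to 1.35), and miR-28-3p 1.13-fold higher (1.09 to 1.17). miR-151-5p was 1.12-fold lower (1.11 to 1.13) and miR-151-3p 1.19-fold lower (1.17 to 1.205). miR-28-5p had a ratio of 0.966 with an interval that includes 1 (0.918 to 1.02). At 1.5-fold 1 of 6 members met the criterion, as higher, against 8.37% of all (6 higher and 15 lower, or 3 higher and 20 lower with total reads and 4 higher and 18 lower with the authors' RPM). That member, miR-708-5p, was under 1.5-fold with total reads or the authors' RPM. Its iron ratios from these libraries were known when the family was taken up. At 2-fold it was 0 of 6 against 0.797%. The median log2 ratio was 0.06 over the members and 0.01 over all, and total reads as the divisor lowered the median over all by 0.10.

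Between the regions of control piglets, both arms of miR-708 and of miR-151 had ratios on the other side of 1 from those in iron piglets, whereas miR-28-3p was higher in dorsal in both. miR-708-5p was 1.39-fold lower in the dorsal library (1.34 to 1.43) and miR-708-3p 1.31-fold lower (1.25 to 1.37). The other 4 members were higher in dorsal: miR-28-5p by 1.18-fold (1.13 to 1.24), miR-28-3p by 1.10-fold (1.07 to 1.14), miR-151-5p by 1.17-fold (1.16 to 1.19) and miR-151-3p by 1.14-fold (1.13 to 1.16). At 1.5-fold 0 of 6 members met the criterion, against 6.77% of all (8 higher and 9 lower, or 5 higher and 9 lower with total reads), and at 2-fold 0 of 6 against 1.99%. The median log2 ratio was 0.17 over the members and -0.00356 over all. This comparison shares the control libraries with the iron comparisons, so the ratios of a member are not independent of each other.

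Summed over the 6 members, the family's level was 9228 CPM in iron dorsal, 9871 CPM in iron ventral, 9994 CPM in control dorsal and 9018 CPM in control ventral, or 0.862% to 1.02% of annotated reads. The sum follows miR-151. Its ratio of iron to control was 0.923 in dorsal (0.916 to 0.931) and 1.09 in ventral hippocampus (1.09 to 1.10). Of the marker sums, 2 were high where miR-708-5p was low. The oligodendrocyte miRNAs miR-219 and miR-338 summed to 8812 CPM in iron dorsal, 13906 CPM in iron ventral, 11503 CPM in control dorsal and 10264 CPM in control ventral, with 2 of 3 annotated rows measured. The skeletal and heart muscle list, with 4 of 7 rows measured, summed to 912, 1084, 1191 and 942 CPM in the same libraries. The epithelial list, with 3 of 4 rows measured, stood at 138, 127, 153 and 457 CPM in the same libraries, high in control ventral alone. The choroid plexus marker miR-204 was also highest in control ventral, at 253 CPM against 164 to 199 CPM elsewhere. So were the sums of the lists for neurons (256682 CPM), microglia and blood immune cells (883 CPM) and red blood cells (1075 CPM). Not all members followed these sums. In the neuron list miR-9 and miR-138 were highest in control ventral. There miR-128 and miR-132 were lowest, and miR-124a was highest in iron ventral. Of the red blood cell list miR-451 was highest in control ventral, but miR-144 and miR-486 were highest in iron ventral. The sum of the vessel list went the other way, lowest in control ventral (16024 CPM) and highest in control dorsal (21937 CPM). The liver marker miR-122 was also lowest in control ventral. None of the markers in these lists was at 0. Their part in the result was not tested.

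The arms of a hairpin are read in the same library, so their shares compare libraries without any scaling. miR-708 and miR-151 gave more reads from the 5p arm and miR-28 more from the 3p arm, in all 4 libraries. The 5p arm of miR-708 had 75.1% of the hairpin's reads in iron dorsal (74.3% to 75.9%), 71.0% in iron ventral (70.0% to 71.9%), 69.2% in control dorsal (68.3% to 70.1%) and 70.4% in control ventral (69.7% to 71.1%). Iron dorsal was highest, and its interval overlaps none of the others. That of miR-151 had 63.8%, 62.5%, 62.4% and 61.8% in these libraries. For miR-28 the 5p arm held 29.4% in iron dorsal, 32.8% in iron ventral, 31.9% in control dorsal and 30.5% in control ventral, which leaves the 3p arm between 2.05 and 2.40 times as abundant.

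Between libraries, the odds of 5p to 3p reads of miR-708 were 1.34 times higher in iron dorsal than in control dorsal (95% interval 1.26 to 1.43) and 1.23 times higher than in iron ventral (1.16 to 1.31). In ventral hippocampus iron and control libraries had an odds ratio of 1.03, with an interval that includes 1 (0.972 to 1.09). From the conserved table this ratio lay below 1, at 0.920 (0.856 to 0.989) with rows named for the arm and 0.927 (0.866 to 0.992) with rows of either strand. In control piglets the ratio of dorsal to ventral was 0.945 (0.894 to 0.998). The arms of miR-708 thus had iron ratios of 0.665 and 0.645 in ventral hippocampus, and in dorsal hippocampus of 1.45 for the 5p and 1.08 for the 3p arm. For miR-151 the 4 odds ratios lay between 1.02 and 1.06, and for miR-28 between 0.853 and 1.12. An odds ratio of at least 1.5-fold was reached by 0 of 3 hairpins in each comparison. From the conserved rows of either strand, miR-708 stood at 1.501 (1.397 to 1.612) for iron against control in dorsal hippocampus, just past that limit. Of the 40 hairpins with both arms measured, 12.5% reached it for iron against control in dorsal and 5% in ventral hippocampus, and 2.5% for dorsal against ventral in iron and in control piglets. The 5p share of miR-708 ranged over 5.90 percentage points between libraries, more than in all but 7 of the 40 hairpins, against 3.404 for miR-28, 2.03 for miR-151 and a median of 2.35.

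**Figure D4:**
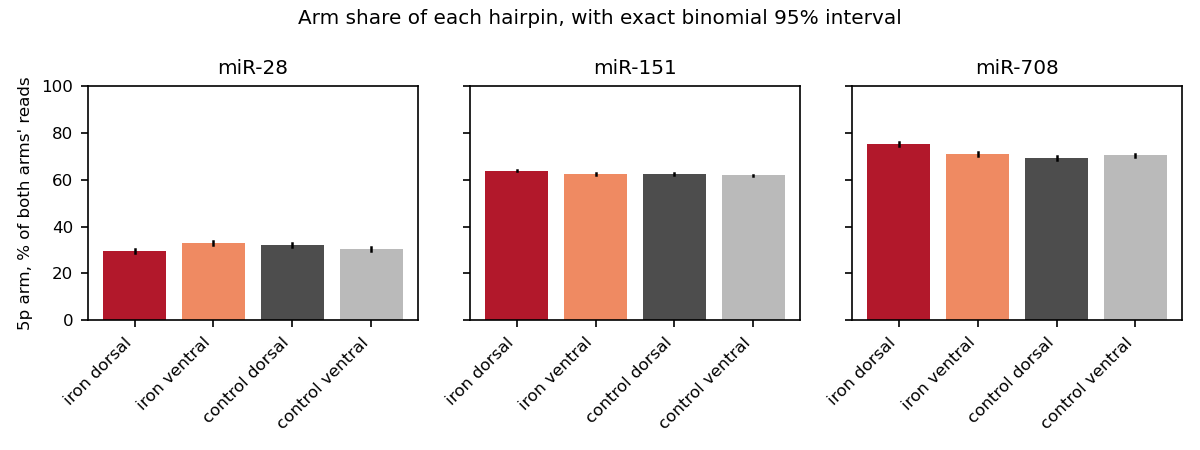
Share of 5p reads among the reads of both arms (vertical axis, percent, from 0 to 100) of each hairpin in the 4 libraries, with exact binomial 95% intervals as thin lines. The bars of miR-708 lie at 69.2% to 75.1% with iron dorsal highest, those of miR-151 at 61.8% to 63.8% and those of miR-28 at 29.4% to 32.8%.

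The table of conserved sequences lists each distinct mature sequence of several species with its own reads, many of them fractions. It puts both arms of miR-151 under the family name mir-28 and has 0 rows named mir-151. The family mir-28, with 15 rows, had 7155 CPM in iron dorsal, 8145 CPM in iron ventral, 8211 CPM in control dorsal and 7015 CPM in control ventral. The family mir-708, with 5 rows, had 892, 599, 678 and 869 CPM in the same libraries. Iron against control gave ratios of 1.32 (1.28 to 1.36) for mir-708 in dorsal and 0.689 (0.669 to 0.709) in ventral hippocampus, and of 0.871 (0.863 to 0.880) and 1.16 (1.15 to 1.17) for mir-28. Both tables come from the same libraries, so this is no second measurement.

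For miR-151-5p this table has rows on both strands. The row of the pig sequence held 16274 reads in iron dorsal, 21467 in iron ventral, 22281 in control dorsal and 21163 in control ventral. A row named for rat miR-3586-3p held more in the same libraries, 20536, 27965, 28165 and 26721 reads. They are set side by side here, with capitals for the 21 bases of the rat sequence that are the reverse complement of the whole of miR-151-5p.
rno-miR-3586-3p: auACUAGACUGUGAGCUCCUCGA
ssc-miR-151-5p: ucgaggagcucacagucuagu
The 3 rows on the strand of miR-151-5p summed to a whole number of reads in 0 of 4 libraries, and together with the rat row in 4 of 4, within 0.001 reads. The joint sums were 46411 reads in iron dorsal, 60369 in iron ventral, 59777 in control dorsal and 60050 in control ventral, which is 93.4% to 94.0% of the reads of miR-151-5p in the annotated table. Without the rat row they were 49.6% to 52.2% of it. For miR-708-5p the rows of the conserved table held 89.6% to 92.9% of the annotated reads, and for miR-708-3p 61.8% to 70.9%.

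**Figure D5:**
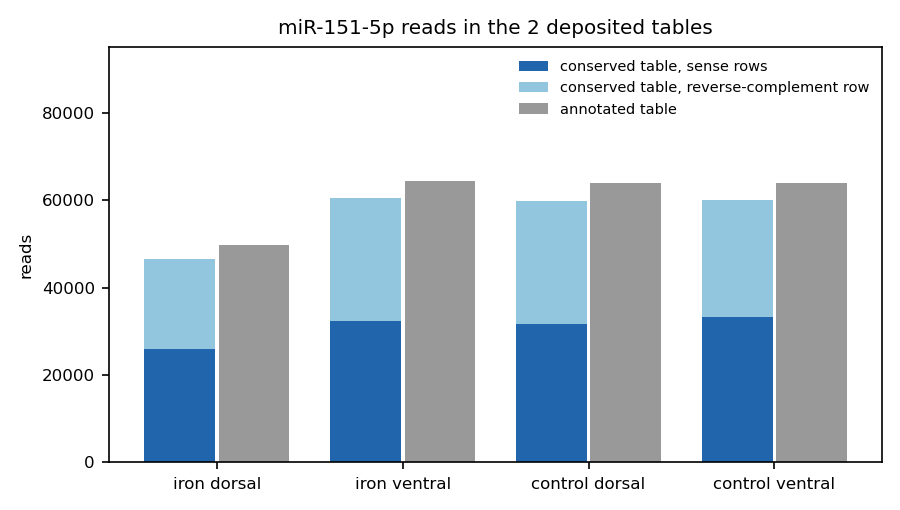
Reads of miR-151-5p (vertical axis, from 0) in the 4 libraries, from the conserved table (left bars, split into rows of its own strand and the reverse-complement row named for rat miR-3586-3p) and from the annotated table (right bars). The split bars reach 93.4% to 94.0% of the annotated ones, and the dark part alone 49.6% to 52.2%.

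Several members have rows that differ in length. How reads that fit more than 1 row were counted is not stated, so the split between such rows is the authors' and not a count of 3′ ends. For miR-708-5p the pig sequence of 23 bases held 61.4% of the reads of its rows in iron dorsal, 64.1% in iron ventral, 66.6% in control dorsal and 64.6% in control ventral, and the rest stood in a row of 22 bases that lacks the last g. For miR-28-3p the pig row held at least 99.9% in every library. A goat sequence of miR-28-3p that differs from the pig one had 14 reads over all libraries, and a goat sequence of miR-708-3p had 22.7.

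Each member was compared with the other measured miRNAs by the distance between their log2 CPM profiles over the 4 libraries, each centred on its mean. Nearest to miR-708-5p was miR-582, at a distance of 0.09, with 12.1 CPM in iron dorsal, 7.95 CPM in iron ventral, 7.94 CPM in control dorsal and 11.2 CPM in control ventral. miR-504 followed at 0.16, with 200.3, 149, 147 and 209 CPM in these libraries, and miR-7 at 0.19, with 52574, 28702, 36339 and 49733 CPM. All 3 were high in iron dorsal and control ventral, as miR-708-5p was, which follows from their choice by the smallest distance. miR-582 lay near the minimum of 10 CPM. With a minimum of 100 CPM in 1 library, the nearest were miR-504, miR-7 and miR-7857-3p. miR-708-3p lay nearest to miR-335 (0.17), miR-129a-3p (0.18) and miR-491 (0.19), and its own partner arm lay at 0.32. The arms of miR-151 lay 0.09 apart, and miR-2366 was the nearest other miRNA to both, at 0.09 from miR-151-5p and 0.12 from miR-151-3p. Next came miR-16 and miR-132 for miR-151-5p, and miR-133a-3p and miR-342 for miR-151-3p. miR-28-3p was nearest to miR-101 (0.05), miR-185 and miR-218b, and miR-28-5p to miR-299 (0.07), miR-376a-3p and miR-126-5p. Over 4 libraries many profiles are alike by such a measure, and ranking by correlation instead kept between 0 and 2 of the 3 names.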

How the data were processed

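Per the file headers, the authors deposited reads per miRNA, here treated as estimated counts because many are fractions, and RPM values. The submitters' processing notes name cutadapt 1.2.2 and the builds Sscrofa10.2 and susScr3. The aligner, the miRNA database release and the way reads that fit several miRNAs were counted are not given in the sources available here. Annotated rows that name 1 set of precursors and differ by under 0.1% in reads were merged (326 to 321 rows), reads were rounded, and libraries were scaled with TMM (edgeR 4.0.16, R 4.3.3). Ratios carry exact conditional binomial (Clopper-Pearson) 95% intervals, shares exact binomial ones and odds ratios intervals from the log odds. The intervals of ratios and odds ratios were tested on simulated Poisson reads. Such reads are independent, so the simulation does not cover amplified reads. Columns were matched to samples by the number in the title. The table of predicted miRNAs, which gives no sequence, and the RPM of the conserved table were not used, 12 columns of per-sample values in all; naming predicted miRNAs by seed was therefore not possible. Named are all members and, for each, the 3 nearest measured miRNAs. The sequence of 1 member is not reported here. The members and lists were chosen with earlier results of these data known. Conserved rows were assigned to a member and strand by the longest shared run of bases, which was chosen after seeing the data. Alternatives used DESeq2 1.42.0 size factors, total reads, the authors' deposited RPM, unmerged or unrounded rows, other minimum levels and the conserved table.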

Additional observations from a re-analysis of the deposited data

Results flagged for a closer look

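For 5 of 6 members the ratio of iron to control was above 1 in one region and below 1 in the other, with counting intervals that exclude 1 in both, as for 30.7% of measured miRNAs. The 5 include miR-708-5p, whose opposite ratios were known when the family was taken up, and its partner arm. The count is therefore no support for a family pattern. The dorsal minus ventral difference of the log2 ratio was 1.12 for miR-708-5p, 0.74 for miR-708-3p, -0.29 for miR-28-5p, -0.39 for miR-151-5p and -0.44 for miR-151-3p. With 1 pooled library for each combination, the difference between regions was not tested. The count was 3 of 6 with total reads (28.7% of all measured miRNAs) or the conserved table. It was 4 of 6 with the authors' RPM (33.5% of all) or unmerged rows. The share over all was not computed for the conserved table or unmerged rows. The ventral interval of miR-28-5p included no difference with total reads, unmerged rows or the conserved table. For miR-708-3p the directions were opposite with TMM scaling, DESeq2-type size factors, or unmerged or unrounded rows: its dorsal log2 ratio was -0.02 with total reads, -0.00033 with the authors' RPM and -0.06 from the conserved table.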

How the results depend on the processing

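Of the 24 log2 ratios (6 members in 4 comparisons), 24 kept their direction with DESeq2-type size factors, unmerged rows or unrounded reads, and 23 with each of total reads, the authors' RPM and the conserved table. The exception each time was miR-708-3p for iron against control in dorsal hippocampus, at -0.019 with total reads, -0.00033 with RPM and -0.06 (-0.0622) from the conserved rows. For miR-708-5p the ratio of iron to control kept its direction in both regions, with log2 values of 0.41 to 0.55 in dorsal and -0.65 to -0.56 in ventral hippocampus. The dorsal minus ventral difference with RPM was 1.01 for miR-708-5p and 0.63 for miR-708-3p. The count of members at least 1.5-fold apart became 1 in place of 2 for iron against control in ventral hippocampus with DESeq2-type size factors, and 0 in place of 1 for dorsal against ventral in iron piglets with total reads or RPM; other minimum levels changed no count. For the 6 members summed, log2 ratios of iron to control were 0.067 with total reads and 0.15 with size factors in ventral, and -0.24 with total reads and -0.22 with RPM in dorsal hippocampus, against 0.13 and -0.12 with TMM. Dorsal against ventral they were -0.20 and -0.17 with total reads and RPM in iron piglets, and 0.11, 0.16 and 0.18 with total reads, size factors and RPM in control piglets. The cause of these moves was not tested. From conserved rows named for the arm, the 5p share of miR-151 was 49.3% in iron ventral and 48.8% in control ventral, since these leave out rows with no arm in their name and the row of the opposite strand; with all rows on either strand, a choice made after seeing the data, the odds ratio of miR-151 for dorsal against ventral in control piglets was 0.992, and that of miR-708 for iron against control was 1.501 in dorsal hippocampus, past 1.5-fold, and 0.927 in ventral hippocampus, where rows named for the arm gave 0.920 and annotated reads 1.03. No paired analysis was possible because each group has 1 library. Read depth does not limit members, whose lowest count was 2523 reads; the lack of replicates does.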
